A study of Mus musculus with 17 samples.

Results

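This comparison set every library labelled AML (acute myeloid leukaemia) against every library labelled Normal, over gene transcripts in bone marrow progenitors of mice. Libraries were chosen by the disease state in their labels alone, and 5 of the 17 libraries of the series were AML and 12 were Normal. The AML libraries were 3 of genotype URE[delta]/+;Tet2-/- (libraries 6, 16 and 17, by the number in their titles) and 2 of genotype URE[delta]/+;Tet2+/- (libraries 7 and 15). The Normal libraries were 3 each of URE[delta]/+;Tet2+/+ (3, 9 and 10), URE+/+;Tet2-/- (4, 13 and 14), URE+/+;Tet2+/- (5, 11 and 12) and URE+/+;Tet2+/+ (1, 2 and 8). Every AML library thus carried both alleles and no Normal library did, so disease state and compound genotype cannot be told apart. The controls were matched for age, and the labels give neither those ages, nor the cells in which an allele was lost, nor whether each library came from its own mouse. Where libraries share a mouse or a culture, the p-values below measure spread between libraries that may be technical. All libraries came from cells sorted from whole marrow for the receptor cKit and against lymphoid and erythroid surface markers, and polyadenylated RNA was sequenced.

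The URE is an enhancer upstream of Spi1, which encodes PU.1, a transcription factor of the ETS family that drives myeloid and early lymphoid differentiation in a dose-dependent way. Tet2 encodes an enzyme that oxidises methylated cytosine in DNA, and loss of its function is frequent in clonal haematopoiesis and in myeloid leukaemia. In marrow, progenitors that carry cKit give rise to neutrophils, monocytes, mast cells, basophils, eosinophils, megakaryocytes, erythroid cells and lymphocytes. Differences between libraries of such a sorted mixture can therefore come from the mixture of stages or from the level in each cell, and fewer cells of a type and less RNA per cell cannot be told apart in bulk RNA.

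Gene counts summed to 21.1 to 38.25 M per library (median 32.17 M). Levels are given as CPM, counts per 1 M after TMM scaling, for AML libraries in the order 6, 7, 15, 16 and 17, and for the 12 Normal libraries as the lowest to the highest with the median. CPM is not scaled by transcript length, so levels are compared between libraries and not between genes. Kit, the receptor used for the sort, stood at 118, 172, 159.9, 152 and 136 CPM in AML libraries and 100.4 to 186 (median 155) CPM in Normal libraries (log2 fold change -0.03 ± 0.11, adjusted p = 0.884). AML libraries 7, 16 and 17 stood apart in 2 ways. On the first principal component (37.1% of the variance) they lay at 125.8, 141.3 and 122.3, against 18.0 for AML library 6, -11.6 for AML library 15 and -53.8 to -5.35 for Normal libraries. Their genes between 60 and 160 Mb of chromosome 2 stood at 53.7%, 55.3% and 53.1% of the Normal median, against 104% in library 6, 92.6% in library 15 and 97.1% to 103% in Normal libraries (median of 495 genes). Spi1 lies in that interval. AML libraries 7 and 16 had neither Xist nor Y-linked transcripts at the set level, while the other 3 AML libraries had Xist and the Normal libraries were a mixture. Libraries with title numbers 1 to 7 (2 AML and 5 Normal) and 8 to 17 (3 AML and 7 Normal) differed in 5656 of 18075 genes (31.3%), so the range of title numbers was a term in the fit.

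Spi1 RNA (chromosome 2, 91082390 to 91115756, GRCm38) was 2.46-fold lower in AML libraries. It stood at 99.1, 21.8, 35.1, 7.85 and 12.3 CPM in AML libraries and at 45.2 to 136 (median 61.7) CPM in Normal libraries. AML libraries 7, 15, 16 and 17 lay below every Normal library and AML library 6 lay inside their range. The log2 fold change was -1.30 ± 0.32 (edgeR quasi-likelihood F test, adjusted p = 0.0111), and it was -0.48 (adjusted p = 0.106) when AML libraries 7, 16 and 17 were left out. That alternative, in which AML libraries 6 and 15 alone were set against the 12 Normal libraries, was added once the chromosome 2 level of each library was known, and it is used below. The Spi1 call was also lost with no term for title range and in title numbers 1 to 7 only. It was lost without libraries 7 and 16 too, with or without a sex term (edgeR adjusted p up to 0.343 over all alternatives). Tet2 (chromosome 3, 133463679 to 133545139) stood at 112, 236, 157, 113 and 177 CPM in AML libraries and 80.01 to 176 (median 111) CPM in Normal libraries, and its log2 fold change of 0.50 ± 0.19 did not pass (adjusted p = 0.0714). It passed without AML library 6 or Normal library 10, among the omissions of 1 library, with adjusted p-values between 0.0289 and 0.337 over all of them. Tet2 also passed with genotype means and without AML libraries 6 and 15 (edgeR adjusted p down to 0.0123). Counts were taken over whole genes and the URE is no part of the Spi1 transcript, so neither value checks an allele.

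Of 18075 genes tested, 3430 (19.0%) passed an adjusted p of 0.05, 2053 higher in AML (11.4%) and 1377 lower (7.62%). These shares are the background against which the gene groups below are read. The rises reached at least 4-fold in 263 genes and at least 16-fold in 56, and the falls in 370 and 64. The median log2 fold change of all genes tested was 0.06. The share of calls that were higher was 59.9%, and it was 50.1% with DESeq2 and 51.3% with voom, so no excess of one direction is read from it. Of the 1377 genes that fell, 153 (11.1%) lay in the chromosome 2 interval, where 721 genes were tested and 13 rose, and 1224 lay outside it.

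The 5 AML libraries carried these differences unequally. Of the genes that rose, libraries 7, 16 and 17 were above all 12 Normal libraries in 78.2%, 77.6% and 77.9%, and libraries 6 and 15 in 38.8% and 44.2%. Of the genes that fell, libraries 7, 16 and 17 were below all Normal libraries in 72.9%, 81.5% and 77.7%, and libraries 6 and 15 in 44.9% and 44.6%. The genes were called on these same libraries, so the shares describe how the calls are spread and test nothing. For genes that did not pass, 28.7% (library 6) to 38.8% (library 16) lay outside the Normal range on either side. In 294 genes that passed (1.63% of genes tested) the 5 AML and the 12 Normal libraries did not overlap, 166 rises (0.918%) and 128 falls (0.708%). Exactly 4 AML libraries lay outside the Normal range in 615 rises (30.0% of rises) and 529 falls (38.4% of falls). Exactly 3 did so in 795 rises (38.7%) and 413 falls (30.0%). The calls numbered 683 when libraries 7, 16 and 17 were left out, of which 371 were also called with all 5, and 7122 when libraries 6 and 15 were left out. On leaving out 1 library the calls numbered 2142 without library 7, 5437 without library 15, 2167 without library 16 and 2278 without library 17.

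**Figure D1:**
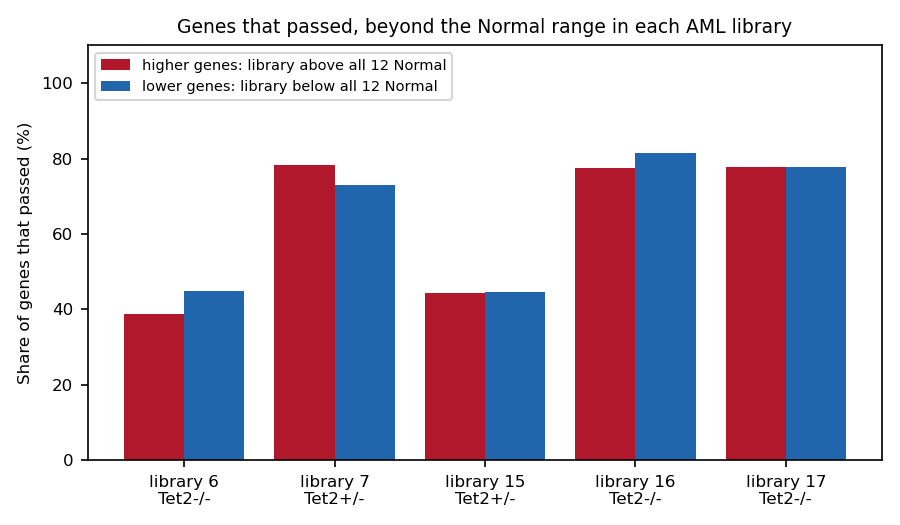
Share of the 2053 genes that rose (red) and of the 1377 genes that fell (blue) for which each AML library lay beyond all 12 Normal libraries, in percent, with the Tet2 genotype under the library number. Libraries 7, 16 and 17 reach 72.9% to 81.5%, and libraries 6 and 15 reach 38.8% to 44.9%.

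The largest rises shared by all 5 AML libraries were in genes with little RNA in Normal progenitors. Clu, which encodes the secreted chaperone clusterin (chromosome 14, 65968483 to 65981547), stood at 29.2, 46.6, 1.39, 72.7 and 12.2 CPM in AML libraries and at 0.149 to 0.804 (median 0.511) CPM in Normal libraries. All 5 AML libraries were above all Normal libraries, with library 15 the lowest of them. The rise was 65.4-fold (log2 fold change 6.03 ± 0.52, adjusted p = 1.24e-05), and 4.54 (adjusted p = 0.00368) on the log2 scale in libraries 6 and 15 alone. Ecm1, a secreted matrix protein (chromosome 3, 95734147 to 95739569), stood at 17.6, 55.9, 3.66, 23.2 and 15.1 CPM in AML libraries and 0.953 to 2.34 (median 1.18) CPM in Normal libraries, a 16.4-fold rise (4.04 ± 0.32, adjusted p = 4.22e-06). It too was lowest in library 15 among the AML libraries, at a level above every Normal library. Pyroxd2, a mitochondrial oxidoreductase, stood at 8.37, 45.4, 22.9, 58.95 and 71.05 CPM in AML libraries and 2.74 to 5.92 (median 4.06) CPM in Normal libraries (3.21 ± 0.30, adjusted p = 1.78e-05). Here library 6 was the lowest AML library. Lrp1, an endocytic receptor for lipoproteins and protease complexes, stood at 24.1, 108, 22.8, 75.4 and 81.8 CPM in AML libraries and 5.46 to 17.4 (median 8.49) CPM in Normal libraries (2.79 ± 0.31, adjusted p = 8.71e-05). For Lrp1 libraries 6 and 15 lay close together, and libraries 7, 16 and 17 were at least 3 times as high as either. Without library 16 the log2 fold change was 5.15 for Clu.

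Metallothionein Mt2, which binds zinc and copper, stood at 3.02, 8.66, 1.22, 7.94 and 9.68 CPM in AML libraries and 0.0592 to 0.889 (median 0.277) CPM in Normal libraries (4.33 ± 0.47). Mst1, which encodes macrophage-stimulating protein, stood at 2.68, 18.3, 3.23, 13.95 and 16.05 CPM in AML libraries and 0.697 to 1.95 (median 1.11) CPM in Normal libraries (3.21 ± 0.35). The endocytic adaptor Dab2 stood at 2.13, 34.7, 2.63, 35.7 and 24.2 CPM in AML libraries and 0.610 to 1.91 (median 1.42) CPM in Normal libraries (3.89 ± 0.48). Libraries 6 and 15 were only just above the highest Normal library in Dab2 and further above it in Mst1. In libraries 6 and 15 alone Mst1 passed (log2 fold change 1.29, adjusted p = 0.0313) and Dab2 did not (0.80, adjusted p = 0.216). The other shared rises among the 12 named were the protocadherin Pcdh11x (8.75), the neuronal calcium channel subunit Cacna1b (5.16), Dlec1 (5.04), the dipeptidase Dpep2 (3.90) and the transporter Slc44a4 (3.75), all on the log2 scale. Pcdh11x stood at 1.19, 29.3, 0.257, 119.5 and 8.98 CPM in AML libraries and 0 to 0.231 (median 0.0625) CPM in Normal libraries, so that library 15 was barely above the highest Normal library. Omission of library 7 brought the log2 fold change to 4.497 for Cacna1b. It was 6.88 for Pcdh11x without library 16 and 4.52 for Cacna1b without library 17.

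The largest falls shared by all 5 AML libraries included genes of basophils, eosinophils and plasma cells. Prss34, a basophil protease, stood at 2.55, 0.0328, 2.37, 0.0863 and 0.0303 CPM in AML libraries and 5.01 to 51.1 (median 21.2) CPM in Normal libraries (21.8-fold lower, adjusted p = 0.0018). Ear2, an eosinophil ribonuclease, stood at 2.89, 0.230, 2.01, 0.230 and 0.243 CPM in AML libraries and 6.05 to 50.6 (median 21.1) CPM in Normal libraries (20.3-fold lower, adjusted p = 0.000515), and its reads may be shared with other genes of its family. Fcer1a, the IgE-binding chain of the high-affinity IgE receptor, stood at 1.998, 0.0328, 1.35, 0 and 0.0607 CPM in AML libraries and 2.13 to 19.4 (median 13.02) CPM in Normal libraries (18.7-fold lower, adjusted p = 0.00266). In all 3 genes libraries 6 and 15 kept 1 to 3 CPM and libraries 7, 16 and 17 were under 0.25 CPM. Jchain, the joining chain of secreted IgM and IgA, stood at 0.170, 1.41, 0.813, 0.173 and 0.728 CPM in AML libraries and 2.48 to 65.1 (median 11.9) CPM in Normal libraries. Cdh1, the adhesion protein E-cadherin, stood at 0.510, 0.0328, 1.20, 0.0575 and 0.0910 CPM in AML libraries and 2.25 to 5.86 (median 4.54) CPM in Normal libraries (-3.42 ± 0.59, adjusted p = 0.00109). Its Normal range was narrow and library 15 was the nearest AML library to it. The remaining named falls were Tmem45a2 (-4.94), the interferon-induced family member Ifit1bl2 (-4.12), the antimicrobial ribonuclease Rnase6 (-3.64), Crispld1 (-3.18), the adaptor Pid1 (-3.03), the sialyltransferase St8sia6 (-2.93) and Kctd14 (-2.91), on the log2 scale. The Kctd14 call was lost without library 7 (adjusted p = 0.057). When library 15 was left out, the log2 fold change was -5.61 for Prss34, -5.07 for Ear2, -4.92 for Fcer1a, -4.81 for Cdh1, -5.98 for Rnase6, -7.05 for Crispld1, -3.84 for Pid1 and -6.21 for Kctd14, and without library 6 it was -5.06 for Fcer1a.

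Among abundant genes, named for their small p-values, most differences were smaller, Thbs4 (below) apart. Fam111a, a protease linked to DNA replication, stood at 88.5, 123, 101, 79.6 and 102 CPM in AML libraries and 128 to 265 (median 207) CPM in Normal libraries, 2.03-fold lower with no overlap (adjusted p = 0.000409). Cpt1a, which carries long-chain fatty acids into mitochondria, stood at 55.004, 36.7, 43.96, 40.3 and 39.6 CPM in AML libraries and 61.6 to 91.2 (median 72.3) CPM in Normal libraries (-0.82 ± 0.13). Stap1, an adaptor that acts downstream of receptor tyrosine kinases, stood at 66.7, 48.8, 58.7, 30.4 and 38.04 CPM in AML libraries and 67.5 to 119.9 (median 89.2) CPM in Normal libraries (-0.93 ± 0.15). For these 3 genes all 5 AML libraries lay below all Normal libraries. Samhd1, a hydrolase of deoxynucleotide triphosphates that lies in the chromosome 2 interval, stood at 121, 45.3, 77.04, 39.4 and 28.8 CPM in AML libraries and 83.4 to 281 (median 151) CPM in Normal libraries (-1.39 ± 0.24). Its log2 fold change was -0.83 (adjusted p = 0.0312) in libraries 6 and 15 alone. Sppl2a, an intramembrane protease of endosomes in the same interval, was 1.68-fold lower and differed little among the AML libraries (50.3, 45.03, 42.6, 44.2 and 46.4 CPM, against 51.1 to 96.2 (median 78.96) CPM in Normal libraries). The ubiquitin ligase Cop1 (-0.65) and Fam129a (-1.31) fell as well. The abundant genes that rose were the actin-binding Afap1 (1.94), the scaffold kinase Cask (1.95), the Golgi mannosidase Man2a2 (0.74), Tbc1d2b (0.69), C2cd5 (0.78) and Xbp1 (1.17), a transcription factor of the unfolded protein response. Xbp1 stood at 105, 177, 133, 428 and 231 CPM in AML libraries and 63.3 to 142 (median 91.6) CPM in Normal libraries, with library 16 the highest.

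**Figure D2:**
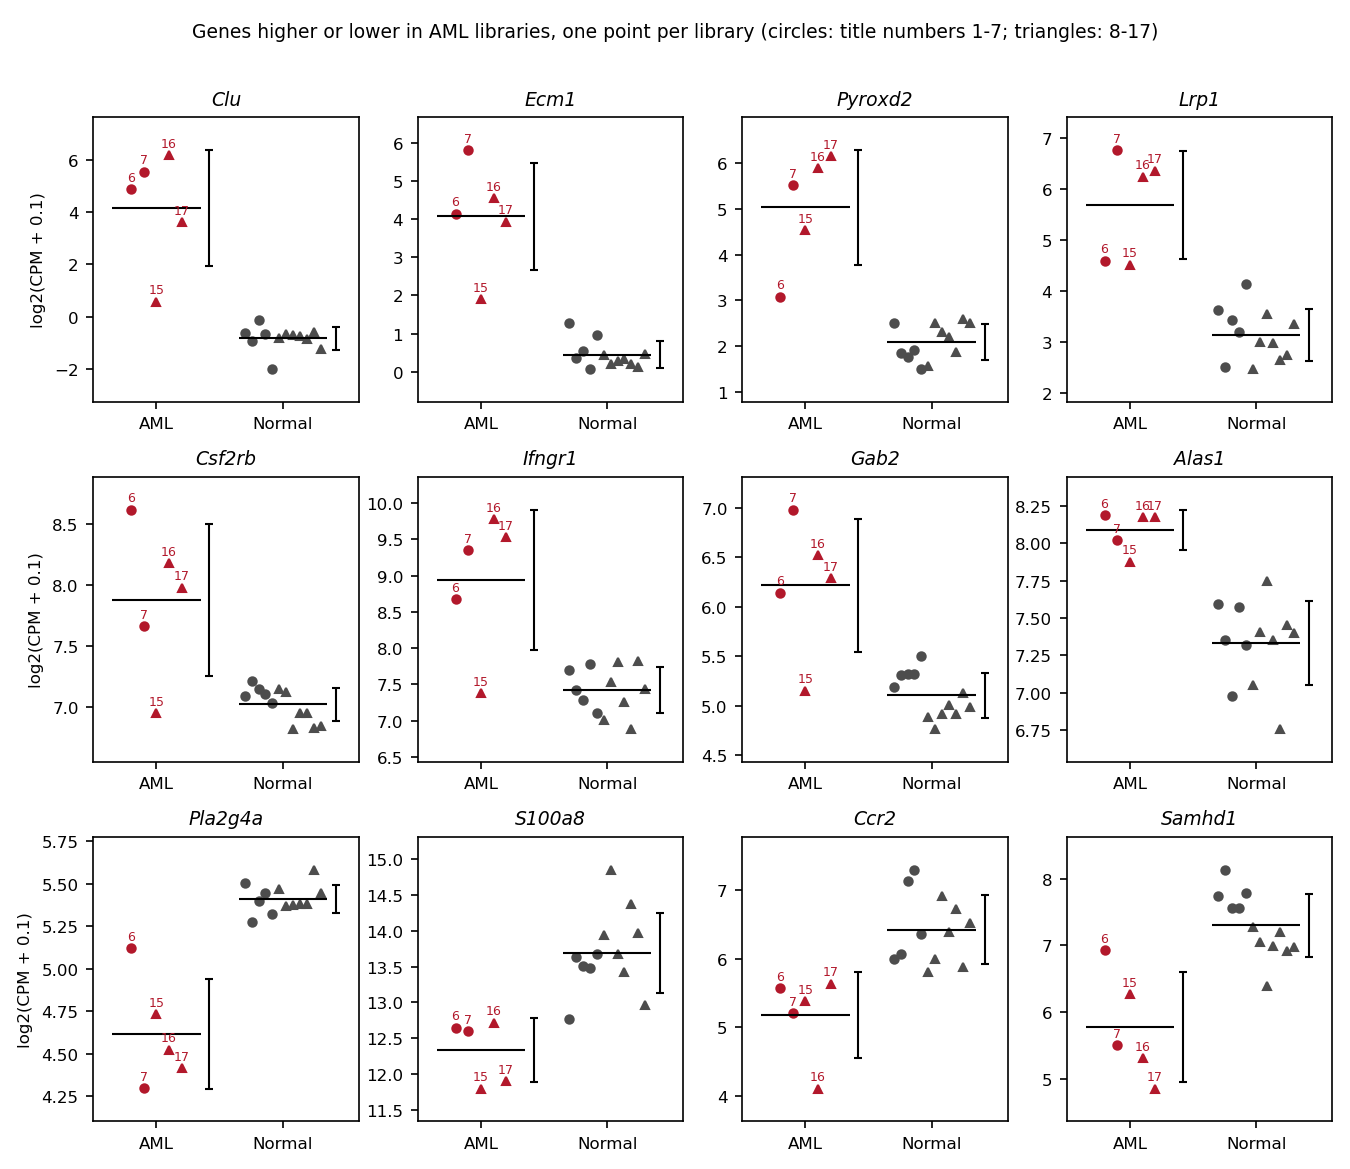
Level of 12 genes in each library as log2(CPM + 0.1), with AML libraries in red and numbered, Normal libraries in grey, a line at the group mean and a bar of 1 SD beside it. Circles are title numbers 1 to 7 and triangles 8 to 17. Clu, Ecm1, Pyroxd2, Lrp1 and Alas1 lie above, and Pla2g4a, S100a8 and Ccr2 below, all Normal libraries in all 5 AML libraries, and in Csf2rb, Ifngr1 and Gab2 library 15 lies within the Normal range.

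Receptors for growth factors and cytokines went in both directions, with 6 of 27 tested members higher and 5 lower (median log2 fold change -0.07). Over all genes tested 11.4% were higher and 7.62% lower. Ifngr1, the ligand-binding chain of the interferon gamma receptor, stood at 408, 655, 166, 876 and 739 CPM in AML libraries and 118 to 227 (median 172) CPM in Normal libraries (3.25-fold, log2 fold change 1.70 ± 0.25, adjusted p = 0.000421). Its partner chain Ifngr2 fell, at 18.9, 14.5, 16.96, 6.42 and 13.5 CPM in AML libraries and 17.9 to 30.8 (median 21.03) CPM in Normal libraries (-0.66 ± 0.18, adjusted p = 0.0189). Library 15 was the AML library inside the Normal range for Ifngr1, and library 6 the one inside it for Ifngr2. Csf2rb, the signalling chain of the receptors for GM-CSF, IL-3 and IL-5, stood at 393, 203, 124, 291 and 252 CPM in AML libraries and 113 to 148 (median 133) CPM in Normal libraries (0.95 ± 0.16). Reads of Csf2rb may be shared with its near copy Csf2rb2. Il3ra, the IL-3 binding chain, was 2.30-fold higher and Tnfrsf1b, a receptor for tumour necrosis factor, 3.15-fold higher. Csf3r (0.55), the receptor for G-CSF, and Il1rap (0.80) also rose. The Csf3r call was lost without any 1 of libraries 7 and 17 (adjusted p up to 0.107), and that of Il1rap without any 1 of libraries 7 and 16 (adjusted p up to 0.122). The other falls were Il5ra (-2.99), Il10rb (-0.62), Il21r (-0.53) and Il1rl1 (-2.51), with calls lost for Il10rb without any 1 of libraries 7, 16 and 17 (adjusted p up to 0.067), for Il21r without any 1 of libraries 7 and 16 (adjusted p up to 0.0786) and for Il1rl1 without any 1 of libraries 1, 2, 3, 4, 5, 6, 7, 8, 9, 11, 12, 14, 16 and 17 (adjusted p up to 0.086). Without library 7 or 16 the count of lower members was 2, and without library 17 it was 3. In libraries 6 and 15 alone, Csf2rb was the named receptor that passed, at 0.82 (adjusted p = 0.046). On the log2 scale the fold change without library 15 was -3.77 for Il5ra and -5.23 for Il1rl1, and without library 6 it was -3.62 for Il5ra. Without libraries 7, 16 and 17 the direction turned, with a log2 fold change of -0.14 for Il1rap.

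Components that relay receptor signals to Ras and MAP kinase passed in 5 of 27 tested members. Of all genes tested 19.0% passed, so no excess is read from this list. Gab2, a docking protein that couples cytokine receptors to Shp2 and phosphoinositide 3-kinase, stood at 70.4, 126, 35.4, 91.8 and 77.9 CPM in AML libraries and 27.1 to 45.2 (median 33.4) CPM in Normal libraries (1.21 ± 0.16, adjusted p = 0.000173). Spry1 was the other rise (1.83), and its call was lost without any 1 of libraries 7 and 16 (adjusted p up to 0.093). Spred2, an inhibitor of the Ras to Raf step, stood at 19.3, 6.66, 15.1, 6.93 and 11.7 CPM in AML libraries and 19.000 to 29.6 (median 23.5) CPM in Normal libraries (-0.99 ± 0.20, adjusted p = 0.00326). Library 6 was the AML library that overlapped the Normal range. Spred1, its relative in the chromosome 2 interval, stood at 12.4, 6.86, 15.7, 12.5 and 12.4 CPM in AML libraries and 15.05 to 28.1 (median 21.1) CPM in Normal libraries (-0.81 ± 0.15). Grb2, the adaptor that recruits the Ras activator Sos1, stood at 49.4, 38.4, 31.7, 24.97 and 26.2 CPM in AML libraries and 36.1 to 71.1 (median 44.5) CPM in Normal libraries (-0.54 ± 0.10, adjusted p = 0.00188). Library 6 lay above the Normal median for Grb2, and library 15 lay inside the Normal range for Spred1. The other AML libraries were in the lower part of the Normal range or under it in these 3 genes. The number of lower members was 9 without library 6 and 10 without library 15, and that of higher members was 4 without library 6 and 1 without library 7.

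Promoter windows of 4 genes that passed are printed because each holds the core PU.1 motif and Spi1 RNA differed between the groups. The windows run from 250 bases before to 50 after the RefSeq start (GRCm38.p6), read 5′ to 3′ in gene orientation. The searched motif was GAGGAAGT, or ACTTCCTC where it lies on the other strand, and capitals mark it. Grb2 (minus strand, chr11:115699485-115699784) and Spred2 (plus strand, chr11:19924192-19924491) fell, as did S100a8 (plus strand, chr3:90668821-90669120), and F13a1 (minus strand, chr13:37049164-37049463) rose.
Grb2: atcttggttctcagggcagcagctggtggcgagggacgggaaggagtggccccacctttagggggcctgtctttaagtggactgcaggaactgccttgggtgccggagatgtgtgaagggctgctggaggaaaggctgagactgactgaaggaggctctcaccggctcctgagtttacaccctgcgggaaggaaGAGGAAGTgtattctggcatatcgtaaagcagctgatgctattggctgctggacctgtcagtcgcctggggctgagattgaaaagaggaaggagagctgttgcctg
Spred2: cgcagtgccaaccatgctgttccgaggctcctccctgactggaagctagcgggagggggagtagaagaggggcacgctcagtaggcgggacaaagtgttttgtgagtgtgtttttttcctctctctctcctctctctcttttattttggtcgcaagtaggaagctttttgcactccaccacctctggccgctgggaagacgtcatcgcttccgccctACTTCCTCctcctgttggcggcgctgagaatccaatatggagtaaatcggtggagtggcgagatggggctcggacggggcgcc
S100a8: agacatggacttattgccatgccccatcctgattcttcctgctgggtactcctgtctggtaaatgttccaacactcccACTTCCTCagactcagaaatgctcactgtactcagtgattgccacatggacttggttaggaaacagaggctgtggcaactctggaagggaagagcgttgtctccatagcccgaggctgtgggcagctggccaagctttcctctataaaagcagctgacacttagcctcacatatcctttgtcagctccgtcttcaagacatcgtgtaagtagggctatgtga
F13a1: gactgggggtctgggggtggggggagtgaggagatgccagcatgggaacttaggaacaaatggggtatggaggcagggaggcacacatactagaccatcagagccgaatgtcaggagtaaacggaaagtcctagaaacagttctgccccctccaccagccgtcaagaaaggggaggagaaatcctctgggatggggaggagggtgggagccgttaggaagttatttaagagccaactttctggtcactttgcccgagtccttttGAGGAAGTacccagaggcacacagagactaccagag
The match begins 56 bases before the start in Grb2, 33 before it in Spred2, 172 before it in S100a8 and 15 after it in F13a1. A window with the motif was found for 7 of the 96 named genes that had a window. The motif stood in 43 of 1453 genes that rose (2.96%) and in 53 of 930 that fell (5.70%), against 441 of all 10884 genes tested that had a window (4.05%). A match is a stretch of letters and does not show binding.

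Genes of the extracellular matrix had the highest median of the 26 lists, at a log2 fold change of 1.37. Of 18 tested members 9 rose and 1 fell, against 11.4% and 7.62% of all genes tested. A further 12 members of the list had too few counts to test, the fibroblast genes Col3a1, Dcn, Lum and Sparc among them. With genes of low counts kept, the median was 0.84 over 29 members, and without libraries 7, 16 and 17 it was 0.29. In title numbers 1 to 7 only, 2 members rose and 2 fell. Svep1, a large adhesion protein, stood at 22.4, 168, 0.492, 369 and 75.6 CPM in AML libraries and 0.0307 to 0.659 (median 0.318) CPM in Normal libraries (8.68 ± 0.86, adjusted p = 7.15e-05). It was high in libraries 6, 7, 16 and 17, and library 15 was within the Normal range. Thbs4, a thrombospondin of tendon and muscle matrix, stood at 4.08, 1002, 0.727, 579 and 183 CPM in AML libraries and 0.0881 to 4.55 (median 0.945) CPM in Normal libraries (7.85 ± 1.06). Fn1, fibronectin, stood at 52.96, 613, 9.79, 2839 and 1238 CPM in AML libraries and 15.5 to 142 (median 27.5) CPM in Normal libraries (4.90 ± 0.87). In both genes the libraries divided, with libraries 7, 16 and 17 above every Normal library and libraries 6 and 15 inside or below the range. The laminin chain Lamb1 stood at 0.383, 12.6, 0.257, 87.6 and 74.1 CPM in AML libraries and 0.0731 to 0.634 (median 0.345) CPM in Normal libraries (6.24 ± 0.82). The proteoglycan versican, Vcan, stood at 11.3, 118, 1.82, 141 and 87.4 CPM in AML libraries and 0.889 to 14.7 (median 2.67) CPM in Normal libraries (4.35 ± 0.67). Lamb1 was -0.08 (adjusted p = 0.966) and Vcan 0.26 (adjusted p = 0.856) when libraries 7, 16 and 17 were left out. Lamc1 (1.51), osteopontin Spp1 (2.04), Fbln1 (2.29) and Col5a1 (1.22) rose as well, and the small proteoglycan Bgn fell (-2.74). The Fbln1 call was lost without library 17 (adjusted p = 0.196) and the Col5a1 call without any 1 of libraries 2, 4, 5, 6, 7, 8, 11, 12, 13, 14, 16 and 17 (adjusted p up to 0.107). In libraries 6 and 15 alone 1 matrix gene, Svep1, passed, with library 15 inside the Normal range. Without library 16 the log2 fold change was 7.62 for Svep1, 7.24 for Thbs4 and 3.86 for Fn1. It was 6.96 for Thbs4 without library 7, -3.87 for Bgn without library 15 and 1.18 for Fbln1 without library 17. The direction was the opposite without libraries 7, 16 and 17, with log2 fold changes of -0.74 for Fn1 and -0.11 for Spp1.

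**Figure D3:**
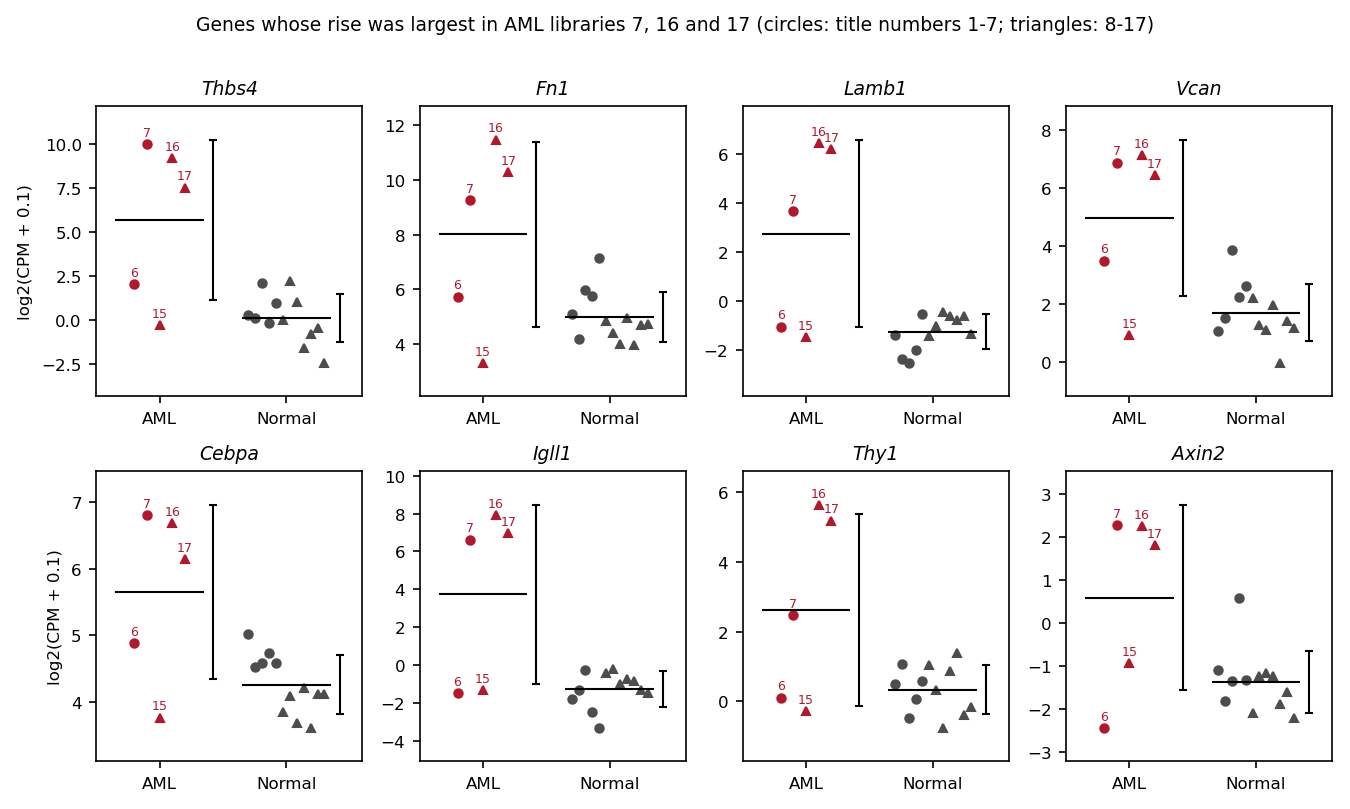
Level of 8 genes as log2(CPM + 0.1) in each library, drawn as in the plot of shared genes and chosen after their values were seen. Libraries 7, 16 and 17 lie above all Normal libraries in all 8 panels, and libraries 6 and 15 lie inside or below the Normal range in each.

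Of 17 tested matrix proteases and inhibitors 5 fell and 3 rose, against 7.62% and 11.4% of all genes tested. The neutrophil collagenase Mmp8 stood at 429.9, 24.9, 48.5, 36.7 and 25.4 CPM in AML libraries and 80.5 to 1350.3 (median 466) CPM in Normal libraries (-2.49 ± 0.56), and the gelatinase Mmp9 at 318, 62.7, 22.1, 13.7 and 44.1 CPM in AML libraries and 49.1 to 480.3 (median 187) CPM in Normal libraries (-1.66 ± 0.42). Both were in the Normal range in library 6, and Mmp9 was also inside it in library 7. Mmp14 (-2.50), Mmp25 (-2.31) and Plaur (-1.36), the urokinase receptor, fell too. These calls were lost for Mmp14 without any 1 of libraries 16 and 17 (adjusted p up to 0.0536), for Mmp25 without any 1 of libraries 7, 16 and 17 (adjusted p up to 0.078) and for Plaur without any 1 of libraries 2, 3, 5, 7, 8, 9, 12, 13 and 17 (adjusted p up to 0.099). The inhibitor Serpinf1 rose, at 9.73, 23.7, 12.7, 72.1 and 160.4 CPM in AML libraries and 5.89 to 19.2 (median 10.3) CPM in Normal libraries (2.04 ± 0.49), with the highest level in library 17. Mmp2 (2.39) and Serpine2 (1.17) were the other rises. The Mmp2 call was lost without any 1 of libraries 7 and 16 (adjusted p up to 0.367) and that of Serpine2 without any 1 of libraries 6 and 16 (adjusted p up to 0.121). Without library 7 or 16 the lower members numbered 3, without library 17 they numbered 2 and with no term for title range 1. Omission of library 6 brought the log2 fold change to -3.30 for Mmp8, -2.29 for Mmp9 and -3.12 for Mmp25. It was -2.93 for Mmp25 without library 15, 1.12 for Mmp2 without library 16 and 1.26 for Serpinf1 without library 17. Without libraries 7, 16 and 17 the direction turned, with log2 fold changes of -0.15 for Serpinf1 and -0.71 for Mmp2.

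Integrins and homing receptors were lower in 8 of 26 tested members and higher in 1 (median -0.72). Over all genes tested 7.62% were lower and 11.4% higher. Ccr2, the receptor that leads monocytes out of marrow, stood at 47.3, 36.9, 41.6, 17.1 and 49.6 CPM in AML libraries and 55.6 to 157 (median 82.8) CPM in Normal libraries (-1.23 ± 0.27, adjusted p = 0.0057). All 5 AML libraries lay below the Normal ones and library 16 was lowest. Itgb3, an integrin chain of platelets and progenitors, stood at 27.2, 3.87, 10.05, 3.02 and 8.98 CPM in AML libraries and 13.1 to 54.01 (median 22.2) CPM in Normal libraries (-1.47 ± 0.33). Cd44, the hyaluronan receptor, stood at 296, 137, 144, 95.2 and 98.7 CPM in AML libraries and 248 to 455 (median 309) CPM in Normal libraries (-1.09 ± 0.18). Itga4 (-0.63), like Cd44 a gene of the chromosome 2 interval, Itgam (-1.85), Itgal (-0.81), S1pr1 (-2.66) and Itga9 (-1.97) were the other falls, and the last 2 lost their calls without 1 library. S1pr1 lost it without any 1 of libraries 6, 7, 8, 12, 16 and 17 (adjusted p up to 0.0766) and Itga9 without any 1 of libraries 1, 2, 3, 4, 5, 6, 7, 8, 9, 11, 12, 13, 14, 16 and 17 (adjusted p up to 0.114). In libraries 6 and 15 alone Cd44 was -0.67 (adjusted p = 0.0748) and Itga4 was -0.39 (adjusted p = 0.15). When library 15 was left out, the log2 fold change was -5.18 for S1pr1 and -3.67 for Itga9.

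Among 21 cytokine and chemokine genes tested, 2 rose and 3 fell, against 11.4% and 7.62% of all genes tested. Il12a, the p35 chain of interleukin 12, stood at 11.8, 55.3, 34.3, 94.9 and 108 CPM in AML libraries and 4.63 to 12.1 (median 9.91) CPM in Normal libraries (6.03-fold, 2.59 ± 0.28, adjusted p = 7.23e-05). It overlapped the Normal range only in library 6 and stood at a log2 fold change of 1.17 (adjusted p = 0.0151) in libraries 6 and 15 alone. Ccl3, the chemokine MIP-1 alpha, stood at 6.55, 58.7, 28.3, 32.6 and 37.3 CPM in AML libraries and 1.48 to 52.6 (median 9.20) CPM in Normal libraries (1.89 ± 0.54), a call lost without any 1 of libraries 7, 16 and 17 (adjusted p up to 0.0605). Il1b, interleukin 1 beta, lies in the chromosome 2 interval and stood at 5.61, 0.262, 2.10, 0.0288 and 0.243 CPM in AML libraries and 1.04 to 128 (median 16.6) CPM in Normal libraries (-3.95 ± 0.94). The Normal libraries themselves spanned 2 orders of magnitude. Il18 (-1.79) and Ccl5 (-1.75) also fell, and the Ccl5 call was lost without any 1 of libraries 1, 5, 6, 7, 8, 11, 12, 16 and 17 (adjusted p up to 0.114). Without library 15 the falls numbered 11. On the log2 scale the fold change without library 15 was -4.81 for Il1b.

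Notch and Wnt components rose in 5 of 18 tested members and fell in 2, against 11.4% and 7.62% of all genes tested. Axin2, a feedback inhibitor that Wnt signalling itself induces, stood at 0.0850, 4.72, 0.428, 4.69 and 3.40 CPM in AML libraries and 0.117 to 1.41 (median 0.296) CPM in Normal libraries (3.06 ± 0.61). The Wnt receptor Fzd1 stood at 0.0425, 10.4, 1.24, 7.28 and 6.25 CPM in AML libraries and 0.457 to 1.54 (median 0.939) CPM in Normal libraries (2.47 ± 0.55), a call lost without library 7 (adjusted p = 0.0629). In both genes libraries 7, 16 and 17 were above the Normal range and library 6 was below it. The co-receptor Lrp5 was 1.39-fold higher, and its highest level was in library 6 (38.5, 24.5, 30.7, 31.8 and 27.2 CPM in AML libraries, 17.4 to 26.2 (median 22.4) CPM in Normal libraries). Fzd7 (0.70) and Lrp6 (0.45) rose, with calls lost for Fzd7 without any 1 of libraries 16 and 17 (adjusted p up to 0.113) and for Lrp6 without any 1 of libraries 3, 4, 7, 9, 11, 12 and 16 (adjusted p up to 0.192). Notch2 fell to 83.7, 58.2, 70.7, 66.9 and 74.9 CPM in AML libraries, against 76.2 to 137 (median 105) CPM in Normal libraries (-0.57 ± 0.12). The other fall was the transcription factor Tcf7l2 (-2.02), lost without any 1 of libraries 1, 2, 3, 4, 5, 6, 7, 8, 11, 12, 13, 14, 16 and 17 (adjusted p up to 0.11). Without library 15 the log2 fold change was -3.55 for Tcf7l2. The direction was the opposite without libraries 7, 16 and 17, with log2 fold changes of -0.20 for Axin2 and -0.47 for Fzd1.

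Antimicrobial and oxidase genes fell in 10 of 20 tested members, against a background of 7.62%, and 2 rose. S100a8, a subunit of the neutrophil protein calprotectin, stood at 6406, 6204, 3550.4, 6734 and 3819 CPM in AML libraries and 6989 to 29645 (median 12861) CPM in Normal libraries (2.59-fold lower, adjusted p = 0.00441). All 5 AML libraries were below all Normal ones. Lyz2, lysozyme, stood at 1298, 3332, 1559, 2569 and 4248 CPM in AML libraries and 3325 to 12100.2 (median 8135) CPM in Normal libraries (-1.51 ± 0.32), and its lowest values were in libraries 6 and 15, where it was -2.44 (adjusted p = 0.0112). Ltf, lactoferrin of the secondary granules, stood at 1209, 261, 628, 25.6 and 102 CPM in AML libraries and 1081 to 5078 (median 2465) CPM in Normal libraries (-2.72 ± 0.59). Ctsg, the primary granule protease cathepsin G, rose, at 1072, 593, 553, 1365 and 1088 CPM in AML libraries and 155 to 714 (median 375) CPM in Normal libraries (1.20 ± 0.26, adjusted p = 0.00498). Elane, neutrophil elastase, was the other rise (1.01), lost without any 1 of libraries 3, 7, 8, 9, 11, 12, 16 and 17 (adjusted p up to 0.133). Mpo, myeloperoxidase of the same granules, stood at 7780.1, 5325, 4475, 6828 and 6122 CPM in AML libraries and 2245 to 6532 (median 4979) CPM in Normal libraries and did not pass (0.38 ± 0.24, adjusted p = 0.287). Without library 16 or 17 the falls numbered 6, with no term for title range 5, and with libraries 7, 16 and 17 left out 2. They numbered 0 in title numbers 1 to 7 only and 9 in 8 to 17 only. Omission of library 15 brought the log2 fold change to -3.40 for Ltf. Without libraries 7, 16 and 17 the direction turned, with a log2 fold change of -0.012 for Elane.

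Receptors by which phagocytes recognise antibody, sugars and microbes fell in 11 of 28 tested members and rose in 2. The shares of all genes tested were 7.62% and 11.4%. Mrc1, the mannose receptor, stood at 0.213, 0.459, 0.984, 0.259 and 0.0303 CPM in AML libraries and 1.18 to 5.03 (median 2.71) CPM in Normal libraries (-2.75 ± 0.52). The scavenger receptor Cd36 stood at 0.0850, 0.0656, 0.0428, 0.0575 and 0 CPM in AML libraries and 0.154 to 1.89 (median 0.534) CPM in Normal libraries (-3.99 ± 0.78), at levels near the limit of detection. Both had no overlap between the groups. Fcgr2b, the inhibitory Fc receptor, rose, at 56.2, 91.7, 47.2, 42.4 and 81.03 CPM in AML libraries and 27.99 to 50.5 (median 37.9) CPM in Normal libraries (0.76 ± 0.15). Tlr7, a sensor of single-stranded RNA on the X chromosome, rose 3.92-fold and was highest in library 7 (27.5, 134, 6.65, 73.7 and 53.03 CPM in AML libraries, 8.59 to 24.3 (median 14.1) CPM in Normal libraries). Library 15 lay below the Normal range for it. Without library 16 the falls numbered 5, without library 17 they numbered 6 and with no term for title range 3. The list shares Fcer1a with the markers of mast cells and basophils. When library 15 was left out, the log2 fold change was -3.63 for Mrc1. The direction was the opposite without libraries 7, 16 and 17, with a log2 fold change of -0.097 for Tlr7.

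Transcription factors of myeloid and stem cells fell in 11 of 45 tested members and rose in 2. All genes tested fell in 7.62% and rose in 11.4%. Gfi1, a repressor needed for granulocyte formation (chromosome 5, 107716657 to 107726036), stood at 64.5, 98.5, 107, 161 and 78.9 CPM in AML libraries and 25.7 to 64.1 (median 40.1) CPM in Normal libraries (1.29 ± 0.17, adjusted p = 0.000182). All 5 AML libraries were above all Normal libraries, library 6 only just, and the log2 fold change was 1.01 (adjusted p = 0.0172) in libraries 6 and 15 alone. Cebpa, which directs progenitors into the granulocyte and monocyte line, stood at 29.4, 111, 13.5, 103 and 70.7 CPM in AML libraries and 12.1 to 32.5 (median 17.9) CPM in Normal libraries (1.78 ± 0.31). It was in the Normal range in libraries 6 and 15, and was -0.06 (adjusted p = 0.88) in those alone. Mef2c, a factor of lymphoid and monocyte progenitors, stood at 24.4, 14.9, 86.8, 39.8 and 27.3 CPM in AML libraries and 63.3 to 119 (median 95.8) CPM in Normal libraries (-1.34 ± 0.28). Irf4, a lymphoid and dendritic cell factor, stood at 0.0425, 0.394, 0.535, 0.374 and 0.152 CPM in AML libraries and 0.432 to 5.08 (median 2.32) CPM in Normal libraries (-2.65 ± 0.60). Library 15 lay inside the Normal range for both genes and the other 4 AML libraries below it. Hlf, a factor of stem cells (-0.91), and Bach2, a repressor of lymphoid cells (-2.79), fell as well. The further falls were Cebpd (-0.63), Spib (-2.37), Mecom (-2.48), Gfi1b (-2.39), Gata1 (-2.39) and Cebpe (-1.01), besides Spi1. The calls were lost for Mecom without any 1 of libraries 16 and 17 (adjusted p up to 0.0636), for Gfi1b without any 1 of libraries 6, 7, 12, 16 and 17 (adjusted p up to 0.0901), for Gata1 without any 1 of libraries 7, 16 and 17 (adjusted p up to 0.0719) and for Cebpe without any 1 of libraries 4, 5, 7, 12, 16 and 17 (adjusted p up to 0.112). Without library 6 the rises numbered 7, without library 15 the falls numbered 21, and without library 16 or 17 the falls numbered 7. On the log2 scale the fold change without library 15 was -4.73 for Bach2, -3.05 for Spib, -3.72 for Mecom, -5.21 for Gfi1b and -4.12 for Gata1.

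Enzymes of lipid mediators and haem gave a few narrow differences, beside the 19.0% of all genes tested that passed. Pla2g4a, the phospholipase that releases arachidonic acid, stood at 34.7, 19.5, 26.5, 22.9 and 21.2 CPM in AML libraries and 38.6 to 47.9 (median 41.8) CPM in Normal libraries (-0.77 ± 0.12, adjusted p = 0.000432). The Normal libraries were tightly grouped and all 5 AML libraries lay below them. Mgst2, which can make leukotriene C4, stood at 64.1, 189, 71.3, 140.4 and 139 CPM in AML libraries and 36.5 to 86.3 (median 52.6) CPM in Normal libraries (1.14 ± 0.23). The prostaglandin receptor Ptger4 fell (-1.05), as did Alox15 (-2.05) and Ptges3 (-0.53), so that 4 of 18 tested members of this list fell and 1 rose. The Alox15 call was lost without any 1 of libraries 7, 16 and 17 (adjusted p up to 0.0889) and that of Ptges3 without any 1 of libraries 1, 2, 3, 7, 8, 9, 11, 13, 14, 15, 16 and 17 (adjusted p up to 0.116). Without library 7 or 16 the falls numbered 2. Alas1, the first enzyme of haem synthesis outside the erythroid line, stood at 292, 259.8, 235, 289 and 289 CPM in AML libraries and 108 to 215 (median 166) CPM in Normal libraries (1.67-fold, 0.74 ± 0.13, adjusted p = 0.00133). It had no overlap between groups, and library 15 was the nearest to the Normal range. Fech, the last enzyme of the same pathway, was 1.98-fold higher (51.9, 38.8, 19.1, 56.5 and 48.6 CPM in AML libraries, 13.3 to 31.01 (median 21.2) CPM in Normal libraries). Aco1, which senses iron, was the other rise of 21 tested members (0.42), and its call was lost without any 1 of libraries 1, 2, 3, 4, 5, 6, 8, 9, 10, 11, 12, 13, 14, 16 and 17 (adjusted p up to 0.183). Without library 6 the log2 fold change was -3.40 for Alox15.

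Energy and sterol metabolism mostly did not pass, as held for all genes tested, of which 19.0% passed. Of 23 glycolysis genes tested 3 rose, the phosphofructokinase Pfkp (0.89), the isomerase Gpi1 (0.88) and the glucose transporter Slc2a1 (0.68), and 1 fell, the lactate dehydrogenase chain Ldhb (-1.59). Gpi1 stood at 1216, 1396, 358, 1195 and 945 CPM in AML libraries and 418 to 740.2 (median 560.4) CPM in Normal libraries, where library 15 was below every Normal library and the other 4 AML libraries were above. The Slc2a1 call was lost without any 1 of libraries 1, 3, 4, 5, 7, 9, 10, 11, 12, 13, 14, 16 and 17 (adjusted p up to 0.173) and the Ldhb call without any 1 of libraries 16 and 17 (adjusted p up to 0.0805). Without library 15 the rises numbered 6. Of 26 genes of sterol and fatty acid synthesis, Sc5d (0.69) and Srebf1 (0.44) passed. Their calls were lost for Sc5d without any 1 of libraries 7 and 17 (adjusted p up to 0.0584) and for Srebf1 without any 1 of libraries 6, 11 and 17 (adjusted p up to 0.0971), and 7 members were lower without library 6.

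Cell cycle and DNA repair genes passed in a minority of members, against 19.0% of all genes tested. Pcna, the sliding clamp of DNA replication in the chromosome 2 interval, stood at 201, 62.9, 176, 60.1 and 102 CPM in AML libraries and 209 to 258 (median 232) CPM in Normal libraries (-0.95 ± 0.23). In libraries 6 and 15 it lay just under the lowest Normal library, and the log2 fold change there was -0.36 (adjusted p = 0.135). Cyclin D1, Ccnd1 (-1.39), cyclin A2, Ccna2 (-0.72), and the mitotic kinase Cdk1 (-0.59) fell as well. The Ccna2 call was lost without any 1 of libraries 7, 16 and 17 (adjusted p up to 0.0868) and that of Cdk1 without any 1 of libraries 3, 4, 5, 7, 9, 10, 12, 13, 16 and 17 (adjusted p up to 0.119). Cdkn1c, the inhibitor p57 of quiescent cells, rose, at 2.04, 1.74, 0.834, 3.999 and 5.07 CPM in AML libraries and 0.199 to 1.10 (median 0.477) CPM in Normal libraries (2.35 ± 0.40). Cdk6, a kinase of G1 phase, stood at 1777, 2507, 1072, 3439.5 and 2077 CPM in AML libraries and 746 to 1629.8 (median 1242) CPM in Normal libraries (0.81 ± 0.21), a call lost without library 16 (adjusted p = 0.0686). In total 2 of 23 tested members of the list rose and 4 fell, and the falls numbered 11 without library 6 and 2 without library 7, 16 or 17. Of 27 repair genes the mismatch repair factor Msh6 (-0.45), Parp1 (-0.46) and the checkpoint kinase Chek1 (-0.60) fell and the damage sensor Xpc rose (0.59). Msh6 had no overlap, at 67.4, 52.1, 67.8, 48.1 and 58.5 CPM in AML libraries and 71.5 to 106 (median 78.8) CPM in Normal libraries. The Parp1 call was lost without any 1 of libraries 7, 16 and 17 (adjusted p up to 0.107) and the Chek1 call without any 1 of libraries 1, 2, 7, 8, 13, 14, 16 and 17 (adjusted p up to 0.115). The repair falls numbered 7 without library 15 and 1 without library 16 or 17, and the repair rises 3 without library 6 and 2 without library 8.

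Regulators of cell death passed in 4 of 25 tested members, against 19.0% of all genes tested, and no excess is read from this count. Bcl2l2, the survival protein Bcl-w, stood at 11.9, 15.02, 9.94, 12.03 and 11.95 CPM in AML libraries and 4.45 to 8.16 (median 6.20) CPM in Normal libraries (0.94 ± 0.15, adjusted p = 0.000544). It was above all Normal libraries in all 5 AML libraries. Bcl2 itself fell, at 20.2, 37.7, 69.6, 24.3 and 58.9 CPM in AML libraries and 59.4 to 99.5 (median 75.5) CPM in Normal libraries (-0.89 ± 0.24), a call lost without library 7 (adjusted p = 0.0538). Bmf, a trigger of cell death in the chromosome 2 interval, rose to 1.06, 6.20, 0.599, 8.57 and 4.40 CPM in AML libraries, against 0.440 to 2.94 (median 0.888) CPM in Normal libraries (2.05 ± 0.48), and its log2 fold change was -0.52 (adjusted p = 0.597) without libraries 7, 16 and 17. Without library 6 the rises numbered 4 and the falls 6, and without library 15 the falls numbered 5. Omission of library 16 brought the log2 fold change to 1.46 for Bmf.

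Markers of other cell types that the sort could hold were lower in most lists. Their counts stand beside the 7.62% of all genes tested that fell. Of 14 tested markers of mast cells, basophils and eosinophils 11 fell (median log2 fold change -3.01), and the summed level of the list was 22.3 to 165 CPM in AML libraries and 173 to 598 CPM in Normal libraries. The groups did not overlap in this sum, and library 15 was the AML library nearest to the Normal ones. Ms4a2, the beta chain of the IgE receptor, was among them at 3.70, 1.57, 9.58, 1.21 and 0.334 CPM in AML libraries and 10.4 to 31.001 (median 17.6) CPM in Normal libraries. Without library 7 or 16 the count was 7. Of 16 markers of late neutrophils 10 fell (median -1.46), with sums of 12299 to 47744 CPM in AML libraries and 29157 to 99293 CPM in Normal libraries. Camp, a cathelicidin of secondary granules, was among them with a log2 fold change of -1.54 ± 0.35. With no term for title range 4 late neutrophil markers fell. In title numbers 1 to 7 only 0 fell (median -0.73), against 10 in 8 to 17 only (median -2.08). Without libraries 7, 16 and 17 the late neutrophil falls numbered 2. The sum of this list lay inside the Normal range in libraries 6 and 7 (47744 and 29999 CPM) and below it in libraries 15, 16 and 17. Of 14 erythroid markers 7 fell, from low levels, with sums of 3.46 to 43.6 CPM in AML libraries and 38.2 to 120.0 CPM in Normal libraries. Among these were the carbonic anhydrases Car1 (-3.01) and Car2 (-2.47), Gata1, Ermap and the alpha globin copies Hba-a1 and Hba-a2, between which reads may be shared. DESeq2 gave 10 erythroid falls and voom 3, and the count was 4 without library 2, 3 without library 8 and 1 without library 17. Without library 7 or 16 all 7 erythroid calls were lost. Of 11 megakaryocyte markers Itgb3 and Gp9 fell, with sums of 16.4 to 57.2 CPM in AML libraries and 44.6 to 98.4 CPM in Normal libraries, and 7 fell without library 15. When library 15 was left out, the log2 fold change was -3.68 for Ms4a2, -3.94 for Car1 and -4.70 for Car2.

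Monocyte and dendritic markers divided, beside 11.4% of all genes tested that rose and 7.62% that fell. F13a1, a coagulation factor subunit made by monocytes, stood at 337, 1277, 173, 2399.9 and 1376 CPM in AML libraries and 95.1 to 304 (median 191) CPM in Normal libraries (5.41-fold, 2.44 ± 0.39). Ly6c2 rose as well (1.02), a call lost without any 1 of libraries 1, 5, 7, 8, 11, 13, 16 and 17 (adjusted p up to 0.148). The dendritic lectin Cd209a stood at 0, 0, 0.107, 0 and 0 CPM in AML libraries and 0.219 to 3.49 (median 1.48) CPM in Normal libraries (-5.52 ± 0.99). Ms4a6c also fell, to 6.89, 4.95, 22.8, 19.2 and 14.2 CPM in AML libraries, against 18.1 to 38.1 (median 23.8) CPM in Normal libraries. In total 2 of 19 tested members rose and 8 fell, and the sum of the list, which F13a1 leads, was 810.5 to 4849 CPM in AML libraries and 833 to 1604 CPM in Normal libraries. Without library 7 the falls numbered 4, and without library 12 or 16 they numbered 5. Without library 15 no AML library had a count of Cd209a. Without libraries 7, 16 and 17 the direction turned, with a log2 fold change of -0.52 for Ly6c2.

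Lymphoid markers divided too, beside the same 11.4% and 7.62% of all genes tested. Of 14 B cell markers 7 fell, among them the recombinase Rag1 of the chromosome 2 interval (-4.72), the B lineage factor Pax5 (-6.51) and the receptor Il7r (-2.88). Rag1 had counts in library 15 alone of the AML libraries, at 0.214 CPM, against 0.475 to 2.55 (median 1.48) CPM in Normal libraries. Igll1, part of the pre-B cell receptor, rose, at 0.255, 97.8, 0.299, 242 and 125 CPM in AML libraries and 0 to 0.758 (median 0.355) CPM in Normal libraries (7.82 ± 0.97, adjusted p = 0.000173). Its partner Vpreb1 rose at much lower levels (1.88), a call lost without any 1 of libraries 7, 13, 14 and 16 (adjusted p up to 0.245). The rise of Igll1 stood in libraries 7, 16 and 17, and libraries 6 and 15 were within the Normal range. The sum of the B cell list, which Igll1 leads in libraries 7, 16 and 17, was 7.52 to 246 CPM in AML libraries and 24.8 to 80.3 CPM in Normal libraries. Of 13 T and NK cell markers Thy1 rose, at 0.978, 5.48, 0.727, 49.9 and 36.3 CPM in AML libraries and 0.490 to 2.52 (median 1.24) CPM in Normal libraries (3.53 ± 0.72), and Cd4 (-3.72), Gzma (-2.90) and Nkg7 (-1.21) fell. The Nkg7 call was lost without any 1 of libraries 1, 7, 13, 16 and 17 (adjusted p up to 0.0986), and 6 members fell without library 15. The sum of this list was 31.9 to 96.8 CPM in AML libraries and 72.6 to 168 CPM in Normal libraries. The defining chains Cd3e and Cd8a had too few counts to test. On the log2 scale the fold change without library 7 was 7.22 for Igll1 and -4.05 for Gzma. It was -3.98 for Il7r and -5.23 for Cd4 without library 15 and 1.18 for Vpreb1 and 2.88 for Thy1 without library 16. Without library 15 no AML library had a count of Rag1 or Pax5. The direction was the opposite without libraries 7, 16 and 17, with log2 fold changes of -0.44 for Igll1, -0.93 for Vpreb1 and -0.67 for Thy1.

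Stem and progenitor markers fell in 5 of 20 tested members and rose in 1, against 7.62% and 11.4% of all genes tested. Hlf, Tek, Mecom, Angpt1 and Slamf1 were the falls, and the sum of the list was 213 to 532 CPM in AML libraries and 430 to 786 CPM in Normal libraries. Tek, a receptor of stem and endothelial cells, stood at 0.383, 0, 1.03, 0.144 and 0.0607 CPM in AML libraries and 0.432 to 6.63 (median 2.12) CPM in Normal libraries (-2.87 ± 0.76). Cd34, a surface marker of progenitors, stood at 10.2, 0.0656, 74.2, 0.547 and 0.394 CPM in AML libraries and 59.3 to 145 (median 75.9) CPM in Normal libraries and did not pass (-2.59 ± 0.96, adjusted p = 0.0684). For Cd34 and Angpt1 library 15 was inside the Normal range and the other 4 AML libraries were below it. Ly6a, which encodes the stem cell antigen Sca-1, rose (1.14), a call lost without any 1 of libraries 7, 16 and 17 (adjusted p up to 0.134). The number of falls was 14 without library 15, 2 without library 16 and 3 without library 6, 8, 12 or 17. The calls were lost for Angpt1 without any 1 of libraries 6, 7, 8, 12 and 16 (adjusted p up to 0.09) and for Slamf1 without any 1 of libraries 2, 4, 6, 7, 8, 12, 14, 16 and 17 (adjusted p up to 0.111). Of 7 tested stromal and endothelial markers 1 passed, Tek, and 10 others had too few counts to test, among them Cdh5, Lepr and Cxcl12. Their sum was 25.3 to 163 CPM in AML libraries and 46.9 to 74.8 CPM in Normal libraries. Libraries 15, 16 and 17 lay above the Normal range in this sum and libraries 6 and 7 below it. Pecam1, a gene of endothelial and blood cells, led the sum, at 17.2, 24.6, 66.1, 127.6 and 105.8 CPM in AML libraries. The sum thus gives no measure of stromal or endothelial cells. Among the stromal and endothelial markers 2 fell without library 6, 7, 16 or 17 and 4 without library 15. Rises numbered 2 without library 6 and in title numbers 8 to 17 only, and 3 without libraries 6 and 15 together. The part of these cell types in the differences of other gene groups was not tested. Without library 15 the log2 fold change was -4.03 for Tek. Without libraries 7, 16 and 17 the direction turned, with a log2 fold change of -0.51 for Ly6a.

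**Figure D4:**
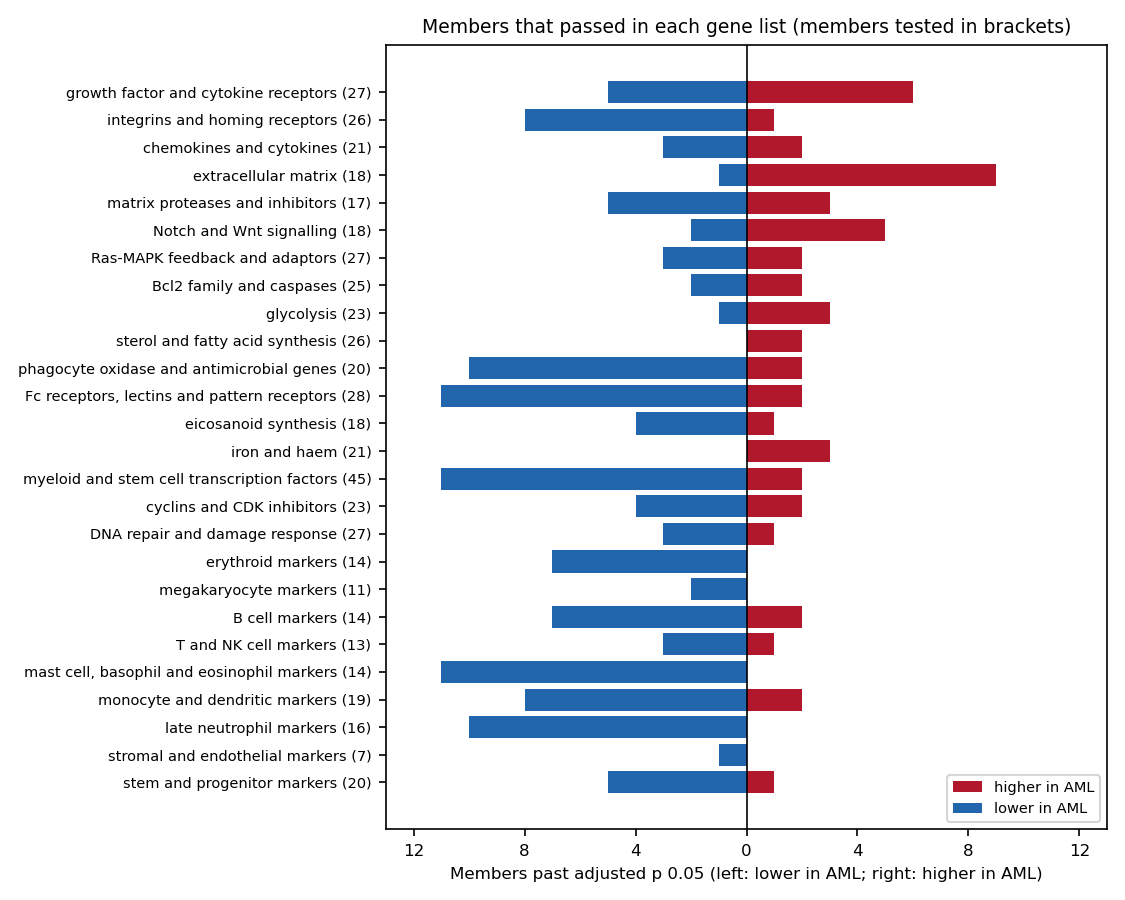
Number of members that passed an adjusted p of 0.05 in each of 26 gene lists, lower in AML to the left and higher to the right, with the number tested in brackets. The longest bars to the left are the Fc receptor and lectin list, the transcription factors and the mast cell, basophil and eosinophil markers with 11 members each, and the longest to the right is the extracellular matrix with 9.

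Within each range of title numbers the direction of the differences was mostly the same. Of the 3430 genes that passed, 3298 had the same sign in both ranges, 1849 also passed in a fit of 8 to 17 by itself and 387 in one of 1 to 7 by itself. Both ranges enter the fit, so this is no independent repeat. The AML difference itself differed between the ranges in 18 genes (0.0996% of those tested, interaction test), with 2293 at an unadjusted p under 0.05. Pecam1, an adhesion protein of endothelial and blood cells, was 1.29 within 8 to 17 and -1.09 within 1 to 7 on the log2 scale (difference 2.36 ± 0.32, adjusted p = 0.0116). Il6st, the shared receptor chain gp130, was 0.11 within 8 to 17 and -2.33 within 1 to 7 (difference 2.41 ± 0.45, adjusted p = 0.0493). The lymphangiogenic factor Vegfc was 0.70 within 8 to 17 and -3.29 within 1 to 7, and the vitamin D receptor Vdr was -0.09 and -2.80 in the same order. In 16 of the 18 genes the AML difference was the higher one in range 8 to 17, and in Apbb1ip and Gtdc1 the lower. Each range holds only 2 or 3 AML libraries, and the count was 293 without library 7, 103 without library 6, 76 without library 15, 74 without library 16 and 9 without library 17. Among Normal libraries it was 7 without library 2, 9 without library 13, 10 without library 1 or 9 and 11 without library 10 or 11.

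**Figure D5:**
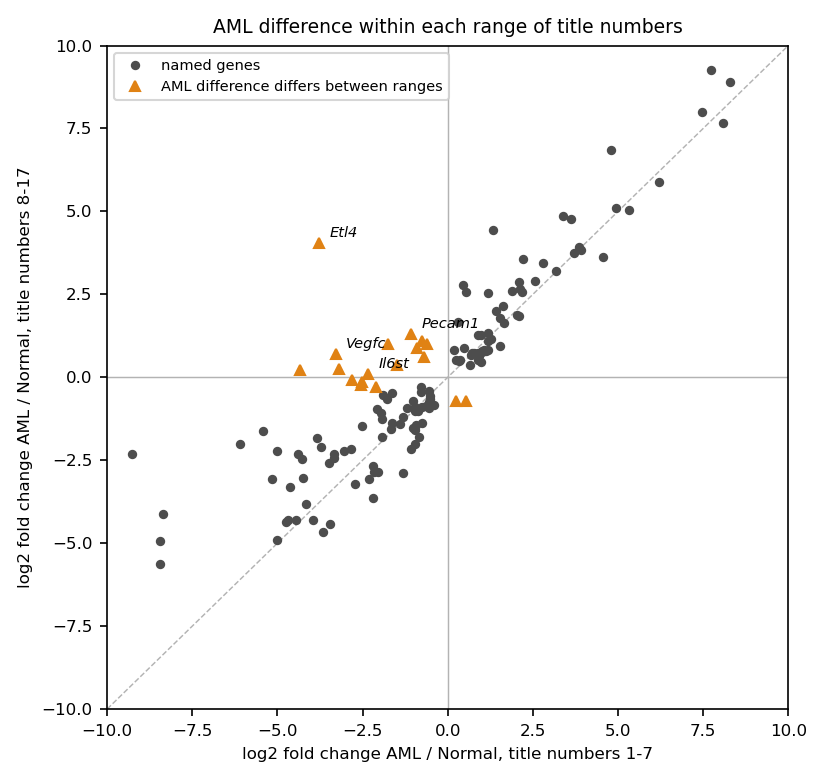
Log2 fold change of AML over Normal within title numbers 1 to 7 (horizontal) and within 8 to 17 (vertical) for the 126 named genes (grey) and the 18 genes whose difference depended on the range (orange), with a dashed line where both are equal. All 126 grey points share a sign in both ranges, and most orange triangles lie above the line, with Etl4 the farthest at 4.04 within 8 to 17 and -3.77 within 1 to 7.

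Over the 125 named genes that passed, 104 passed in every omission of 1 library. Leaving out 1 library moved the fold of 38 of them by over 1.5 times, which library 15 did in 25 genes, library 16 in 6, libraries 6 and 7 in 4 each and library 17 in 2, while no omission of a Normal library did so. Over all 198 named genes and list members that passed, 68 moved so, 48 of them without library 15, 9 without library 16, 8 without library 6, 5 without library 7 and 3 without library 17. The genes Clu, Ecm1, Mt2, Slc44a4, Mst1, Pyroxd2, Lrp1, Pcdh11x, Svep1, Csf2rb and Gfi1 (higher) and Ifit1bl2, Cdh1, Fam111a, Fam129a and Stap1 (lower) passed under all 30 alternatives. With libraries 7, 16 and 17 left out, 31 named genes passed. Besides those 16 they were the rises Il12a, Lrp5 and Srebf1 and the falls Prss34, Ear2, Fcer1a, St8sia6, Cop1, Sppl2a, Samhd1, Itgb3, Lyz2, Ltf, Pla2g4a and Gp9.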

How the data were processed

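RNA-seq of 17 libraries was used, 5 AML and 12 Normal, grouped by the disease state in the labels. Reads were aligned with STAR to GRCm38, per the submitters' processing notes, and the version, the counting tool, its strand setting and the annotation were not stated there. The authors deposited raw read counts, whole numbers per gene, in 1 table for all libraries. Its 47643 gene rows were used, of which 47224 matched GENCODE vM21 for names and positions, and 48361 rows with another kind of id were not used. All value columns matched a library (0 did not). Gene counts summed to 21.1 to 38.25 M per library, and fitted errors reflect the spread between libraries.

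Counts were tested with edgeR 4.0.16 in R 4.3.3, with TMM scaling, filterByExpr (minimum count 10, minimum total 15), a robust quasi-likelihood fit and terms for title range and disease state, and Benjamini-Hochberg adjustment over all 18075 genes at 0.05. Each ± beside a log2 fold change is a standard error derived from the fold change and its F statistic. DESeq2 1.42.0 and voom (limma 3.58.1) were alternatives, besides others described in the closing section. The scripts were checked on simulated counts. A fitted fold change of a gene with few counts depends on the prior count, and a group at 0 has counts under a limit of 3 per library.

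The members and the gene lists were chosen with earlier results of these data known. Genes named were Spi1 and Tet2, the 12 largest rises and 12 largest falls without overlap (mean log2 CPM of at least 1, unnamed gene models left out), the 8 abundant genes of smallest p in each direction (mean log2 CPM of at least 6), and up to 4 passing members of each of 26 lists, 126 in all. Further passing members complete the counts, and Kit, Fn1, Mpo and Cd34 were chosen after their values were seen. The results of 4 list members are not reported here. Of the 126 genes 60 overlap another annotated gene, 47 of them on the other strand, and without a known strand setting their reads cannot be told apart. Sex transcripts were called at 100 CPM (Xist) and 10 CPM (Y-linked genes), and a low chromosome 2 level at under 75% of the Normal median. Promoter windows came from RefSeq (GRCm38.p6) and matched 10884 genes tested by symbol.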

Additional observations from a re-analysis of the deposited data

Results flagged for a closer look

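In 9 of 126 named genes 1 AML library lay far from the other 4. The measure was the gap to its nearest neighbour over the range of the 5, with a limit of 0.71. It was taken on log2 CPM with a prior count of 2, while the levels below are CPM. For genes not picked on these libraries, chance alone gives about 1 gene in 20. Library 15 was the high one in Crispld1 (1.45 CPM, with 0 to 0.0575 CPM in the other 4), in Rag1 (0.214 CPM), in Pax5 (0.0214 CPM) and in Cd209a (0.107 CPM), and the other 4 libraries had no counts of the last 3. With the others at 0 this measure takes its highest value whatever the level. These levels stand for 10 reads of Rag1, 5 of Cd209a and 1 of Pax5, the last under the limit of 3 counts. In the 6 genes that remain the measure depends on the level. That is about the number that a rate of 1 in 20 gives for 126 genes. The genes were picked on these same libraries, so that rate need not hold for them and the count tests nothing. Neither an excess nor a lack of outliers is read from it. Library 15 was the low one in Gpi1, at 358 CPM with 945 to 1396 CPM in the others, and in Sc5d, at 12.1 CPM with 28.4 to 35.03 CPM in the others. Library 6 was the high one in Mmp8, at 429.9 CPM with 24.9 to 48.5 CPM in the others. Library 16 was the low one in Ccr2 (17.1 CPM, with 36.9 to 49.6 CPM in the others) and library 7 in Spred1 (6.86 CPM, with 12.4 to 15.7 CPM in the others).

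In 18 genes the AML difference was not the same in both ranges of title numbers by the interaction test of edgeR. Given as the log2 fold change in 8 to 17 minus that in 1 to 7, it was 7.83 in Etl4, 4.56 in Macrod2, 3.98 in Vegfc, 3.42 in Ralgds, 2.74 in Slc27a1 and 2.69 in Vdr. It was 2.41 in Il6st, 2.36 in Pecam1, 2.33 in Fnbp1l, 2.31 in Abcb1b, 1.82 in Ly9 and in Vars2, 1.79 in Txndc5, 1.75 in Ptprs, 1.58 in Atg2a and 1.27 in Atp10a. It was -0.96 in Apbb1ip and -1.26 in Gtdc1. Most of the 18 genes changed sign between the ranges, and only Fnbp1l, Abcb1b, Txndc5 and Vdr were lower in AML in both. Etl4 was the farthest apart, at 4.04 within 8 to 17 and -3.77 within 1 to 7. Its rise within 8 to 17 stood in libraries 16 and 17 (34.4 and 49.0 CPM), and library 15 (1.67 CPM) lay inside the Normal range.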

How the results depend on the processing

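The 3430 calls stayed within 1.5 times with DESeq2 (4312), voom (5080), median-of-ratios scaling, genes of low counts kept, no robust spread, genotype means and title numbers 8 to 17 only. They numbered 2191 with no term for title range, 559 in title numbers 1 to 7 only, 1151 without the libraries that had no sex call and 282 with a sex term in the same libraries. They numbered 683 without the AML libraries of low chromosome 2 level and 7122 without the other AML libraries, and 2142 to 5437 when 1 library was left out. These settings differ in the number of libraries, and the cause was not tested. Of the 126 named genes 10 changed direction, each only without AML libraries 7, 16 and 17, where log2 fold changes were -0.079 (Lamb1), -0.15 (Serpinf1), -0.20 (Axin2), -0.47 (Fzd1), -0.52 (Bmf), -0.10 (Tlr7), -0.064 (Cebpa), -0.44 (Igll1), -0.67 (Thy1) and -0.51 (Ly6a). Of list members outside the 126, log2 fold changes also turned to -0.74 (Fn1), -0.11 (Spp1), -0.71 (Mmp2), -0.012 (Elane), -0.52 (Ly6c2), -0.93 (Vpreb1) and -0.14 (Il1rap) there. Without the libraries that had no sex call Mmp2 was -1.01 (-1.20 with a sex term) and Vpreb1 -0.050. In the alternative without libraries 7, 16 and 17 no list had more than 3 passing members in either direction. Of the 52 counts of higher and lower list members, the number that moved by over 1.5 times was 0 with no robust spread, 2 with median-of-ratios scaling, 8 with DESeq2, 9 with genes of low counts kept, 10 with genotype means, 14 with no term for title range and 18 with voom. It was 23 in title numbers 8 to 17 only, 26 without AML libraries 6 and 15, 35 without the libraries that had no sex call, 36 in title numbers 1 to 7 only, 41 without AML libraries 7, 16 and 17 and 43 with a sex term. With no term for title range the falls among receptors numbered 2 (of 5 in the report), integrins 5 (8), eicosanoid genes 2 (4), erythroid markers 4 (7) and stem markers 3 (5). The 18 genes that differed between title ranges were 227 with DESeq2, 0 with voom (1086 at an unadjusted p under 0.05) and 7 to 293 when 1 library was left out. No paired analysis was possible because each title number occurs once and the labels pair no libraries. Depth limits genes under about 1 CPM, such as Cd36, Rag1 and Cd209a.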
